A study of Homo sapiens with 96 samples.

Results

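The complement system was examined through 8 genes in the human breast cancer line MDA-MB-231, in which the MEK inhibitor U0126 had been given ahead of EGF. The genes were the proteases C1R and C1S, the components C4B and C3, factor B (CFB), the C1 inhibitor SERPING1, and the membrane regulators CD55 and CD59. They are 8 of the 11940 genes that the array annotation names by 1 symbol, and they were read from every probe set annotated to 1 of these symbols alone, 13 of 19415 probe sets. The group was chosen from these data because C4B was higher with U0126 in 3D than in 2D culture. The difference of U0126 from DMSO-EGF, in either culture and between the cultures, is therefore given for these genes as a description without a test.

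Complement is a cascade of plasma proteins that mark cells and microbes for uptake and lysis. In the classical pathway, the proteases C1R and C1S of the C1 complex cleave C4, and cleaved C4 takes part in the enzyme that splits C3. The alternative pathway amplifies C3 cleavage through factor B, and SERPING1, CD55 and CD59 restrain the cascade at successive steps. Most plasma complement is made in the liver, but many epithelial and tumour cells also transcribe complement genes.

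The study followed RNA for 48 h on 96 Affymetrix arrays, of which 3D culture had 32 in a single series (3D04) and 2D culture 64, split evenly between series 2D03 and 2D04. In all groups, cells grown to 80% confluence had been held in low serum for 24 h. The U0126 arm received 10 uM U0126 for 30 min and then 10 ng/ml EGF at 0 h. The DMSO-EGF arm received the vehicle DMSO for 30 min and then the same EGF, the EGF arm received EGF alone, and the control arm received neither. Each of these 4 arms was sampled at 0.5, 1, 4, 8, 12, 24 and 48 h, with 1 array per arm and time in 3D and 2 in 2D, 1 from each series. At 0 h there were U0126, DMSO and control arrays without EGF. The middle window below means 4, 8 and 12 h together, and the late window means 24 and 48 h. One cell line was used, 3D culture came from a single series, and the labels do not say how the 3D cultures were made or whether repeats were separate cultures. Culture and series therefore cannot be told apart in 3D, and p-values measure the spread between these samples, which may be technical. As 3D had 1 array per arm and time, tests in 3D and between the cultures took arrays of different times as repeats. Their p-values thus do not rest on repeats of the same arm and time in 3D. As U0126 was the only inhibitor used, what is due to MEK cannot be told apart from other actions of U0126.

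Values are on a presumed log2 scale, each probe set set against an unknown reference, so that only differences between arrays can be read and neither the level of one gene against another nor the presence of a cell line's markers can be checked. DUSP6, an ERK phosphatase whose RNA follows MEK activity, was lower in U0126 than in DMSO-EGF arrays at 24 and 48 h, by 1.76 and 1.65 in 3D, by 2.44 and 2.28 in series 2D03 and by 2.32 and 1.96 in series 2D04 (log2, probe set 208891_at). Of the 96 arrays, the 8 h and 12 h U0126 arrays of series 2D03 stood apart in the actin control, with 5′ minus 3′ signals of -1.26 and -1.08 against -0.36 to 0.31 on the other 94 arrays. Among markers of other cell types in the late U0126 comparison in 3D, 1 of 9 hepatocyte, 1 of 5 leukocyte and 2 of 14 fibroblast probe sets passed as higher, and 2 of 6 endothelial ones as lower. Of all probe sets 19.7% passed as higher and 17.2% as lower in this comparison. The summed log2 values of the hepatocyte list, -6.28 and -5.45 in late U0126 arrays against -6.29 and -5.46 in late DMSO-EGF arrays of 3D culture, overlapped, as did those of leukocytes and fibroblasts. Those of the endothelial list, -0.73 and 0.63 against 0.75 and 0.85, did not, and the part of these markers in the results was not tested.

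The table of RefSeq upstream sequences used here (GRCh38.p14) matched 4 of the 8 genes, CD55, CFB, CD59 and C1R, in 8 windows. The 250 bases before the start are shown for CFB and for the 2 annotated starts of C1R, because these genes had the largest late differences in 3D after C4B. C4B, C3, C1S and SERPING1 are named only. The CFB window lies at chr6:31945845-31946094 on the plus strand, and the C1R windows lie at chr12:7092446-7092695 and chr12:7091894-7092143 on the minus strand. Capitals mark matches, searched on both strands, to a gamma-activated site (TTCNNNGAA), to a core of the interferon-stimulated response element (TTTC repeated after 2 bases of any kind), and to the NF-kappaB consensus.
CFB: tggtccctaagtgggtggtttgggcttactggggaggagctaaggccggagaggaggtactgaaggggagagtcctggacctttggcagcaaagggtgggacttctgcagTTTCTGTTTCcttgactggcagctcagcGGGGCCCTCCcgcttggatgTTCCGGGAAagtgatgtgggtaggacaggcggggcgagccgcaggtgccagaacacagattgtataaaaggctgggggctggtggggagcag
C1R, upstream start: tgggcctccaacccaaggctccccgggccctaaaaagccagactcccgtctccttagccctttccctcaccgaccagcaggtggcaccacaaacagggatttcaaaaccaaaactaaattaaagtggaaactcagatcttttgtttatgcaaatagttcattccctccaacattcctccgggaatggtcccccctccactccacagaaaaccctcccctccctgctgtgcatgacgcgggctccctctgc
C1R, downstream start: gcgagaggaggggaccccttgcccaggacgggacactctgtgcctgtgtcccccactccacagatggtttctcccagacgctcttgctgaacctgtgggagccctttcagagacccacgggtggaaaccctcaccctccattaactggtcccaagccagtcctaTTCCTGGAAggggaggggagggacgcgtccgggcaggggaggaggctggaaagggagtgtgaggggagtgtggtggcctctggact

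The CFB window held 1 match to each motif, none overlapping another, and the gamma-activated match TTCCGGGAA began 92 bases before the start. In the downstream C1R window the single match, TTCCTGGAA, began 86 bases before the start, and the upstream C1R window held none of these letters. Of 35116 windows of this length, 6.57% held a gamma-activated match, 3.02% the interferon-stimulated core and 9.96% the NF-kappaB consensus. The CD55 window held none, and 2 overlapping CD59 windows of 4 shared 1 gamma-activated match. The motifs were picked after the CFB window had been read, and a match describes letters, not binding.

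C4B, one of 2 near-identical genes for complement component C4, showed the largest late difference among the 8 genes. In 3D culture with U0126 its log2 signal was -0.57, -0.40, 0.37, 1.76 and 3.28 at 4, 8, 12, 24 and 48 h. With DMSO-EGF in 3D it was -0.28, -0.42, -0.07, -0.19 and -0.09 at these times. The U0126 arrays at 12, 24 and 48 h were above all 24 arrays of the 3D series without U0126, which spanned -0.73 to 0.26.

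In 2D culture C4B did not separate by arm. With U0126 at 24 and 48 h it was 0.10 and 0.34 in series 2D03, against 0.26 and 0.07 with DMSO-EGF. In series 2D04 the U0126 arrays were at -0.29 and -0.03 at these times, against -0.36 and -0.25 with DMSO-EGF. All 4 late 2D values with U0126 lay within the range of arrays of the same series without it. Averaged over the late window, U0126 minus DMSO-EGF was 2.66 in 3D (6.32-fold) and 0.10 in 2D (1.07-fold), a gap of 2.56 on the log2 scale. At 48 h in 3D 13 of the 19415 probe sets had a larger difference than C4B, and at 24 h 60 did. As the genes were chosen on C4B in this contrast, nothing is read from these ranks.

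The C4B probe set cannot be assumed to exclude C4A, the paralog that differs from C4B in few bases. A further probe set, annotated to C4B and C4A together and so not counted among the 13, was also higher with U0126 in late 3D culture. Unlike the C4B probe set it was not higher at 12 h in 3D, at 0.04 with U0126 against 0.14 with DMSO-EGF. It read 0.71 and 2.09 with U0126 at 24 and 48 h in 3D, against -0.25 and -0.14 with DMSO-EGF. In 2D the late values of that probe set with U0126 were -0.04 and -0.06 in series 2D03 and -0.23 and -0.12 in series 2D04, inside the range of the other arms. Over the 32 arrays of 3D culture its correlation with the C4B probe set was 0.96 (Pearson) and 0.64 (Spearman), and over the 64 arrays of 2D culture 0.02 and -0.01, as a description of arrays that share series, times and treatments.

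CFB, the protease subunit of the alternative pathway C3 convertase, was higher with U0126 in 3D earlier than C4B. Its probe set 202357_s_at read 0.07, 0.49, 0.98, 1.73 and 2.82 with U0126 at 4, 8, 12, 24 and 48 h in 3D, against -0.17, -0.36, -0.26, 0.01 and 0.16 with DMSO-EGF. From 8 h onwards the U0126 arrays were above all 24 arrays of the 3D series without U0126, whose highest value was 0.37. Unlike C4B, CFB also differed by arm in 2D at the last time. In series 2D04 it was 0.38 and 1.08 with U0126 at 24 and 48 h, against -0.30 and -0.23 with DMSO-EGF, and in series 2D03 -0.16 and 0.39, against 0.06 and -0.29. The 48 h U0126 array was the highest of its series in both cases. The late mean difference was 2.19 in 3D (4.56-fold) and 0.61 in 2D (1.53-fold), and within 2D it was 0.23 in series 2D03 and 1.00 in series 2D04.

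The second CFB probe set, 211920_at, did not share this course. It read -0.06 and 0.07 with U0126 at 24 and 48 h in 3D, against -0.22 and -0.12 with DMSO-EGF, and its late mean difference was 0.18 in 3D and -0.01 in 2D. The CFB values above thus rest on 1 of its 2 probe sets.

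**Figure D1:**
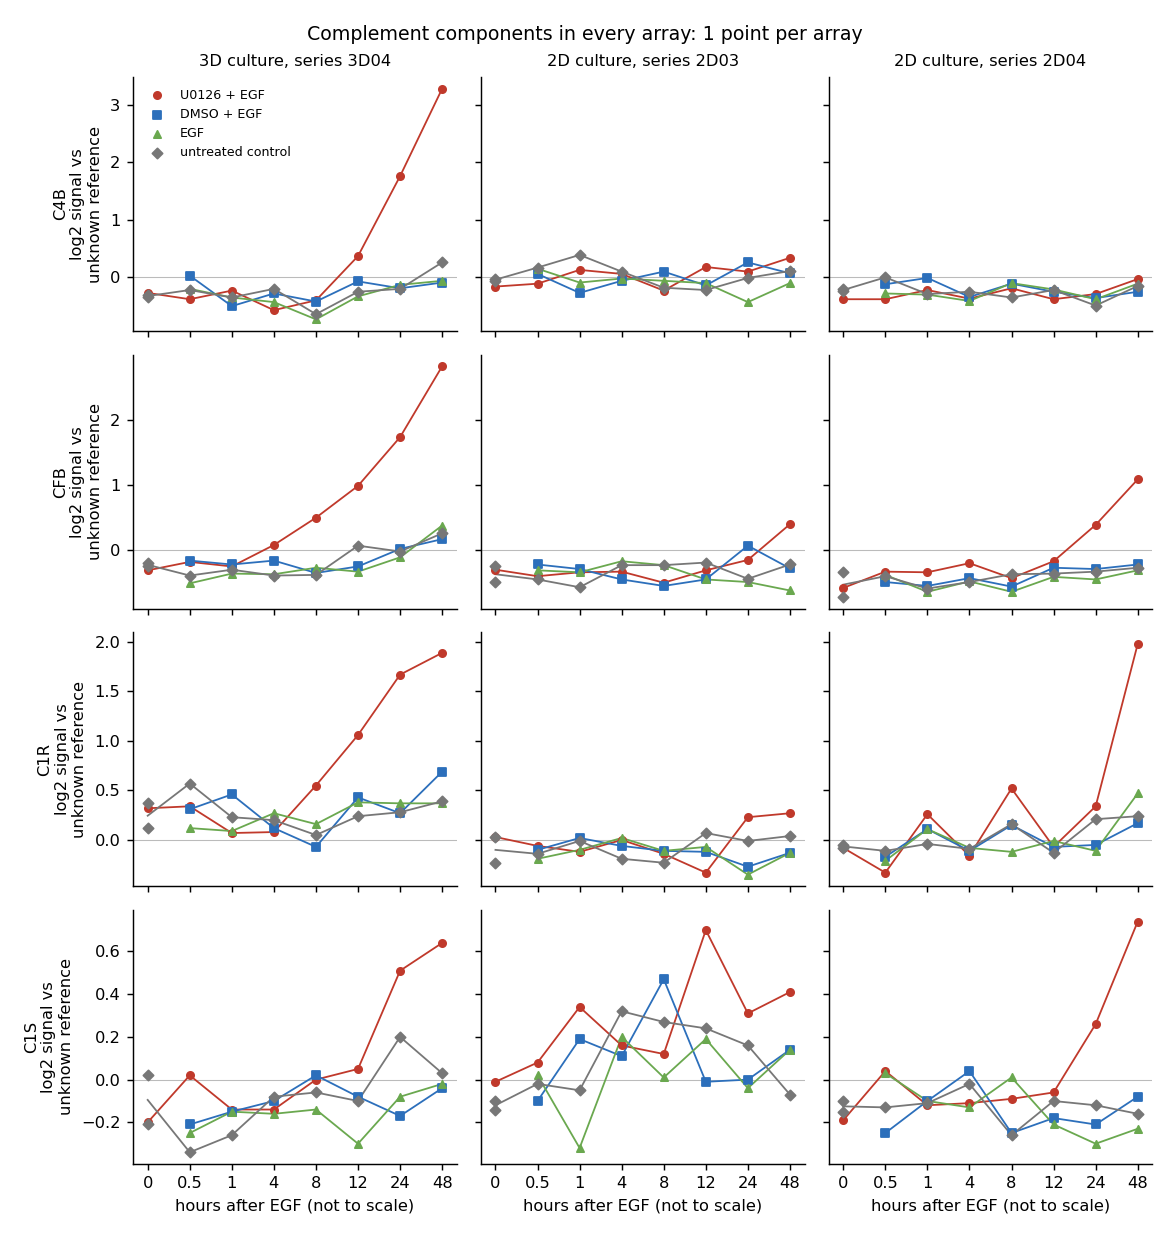
Log2 signal against an unknown reference (vertical axis, own scale per gene) of C4B, CFB (202357_s_at), C1R and C1S at each time after EGF (horizontal axis, not to scale) in series 3D04, 2D03 and 2D04, with 1 point per array and lines through the mean at each time (0 h DMSO arrays not drawn). C4B reached 3.28 in the 48 h U0126 array of 3D culture and stayed between -0.38 and 0.34 in the U0126 arrays of 2D culture, whereas C1R reached 1.89 in 3D and 1.98 in series 2D04.

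C1R, which activates C1S inside the C1 complex, was also higher with U0126 in 3D from 8 h. It read 0.55, 1.06, 1.67 and 1.89 with U0126 at 8, 12, 24 and 48 h, against -0.07, 0.43, 0.27 and 0.69 with DMSO-EGF. The U0126 arrays from 12 h on lay above the highest of the 24 arrays of that series without U0126, 0.69. In 2D the series differed. C1R in series 2D04 was 0.34 and 1.98 with U0126 at 24 and 48 h, against -0.05 and 0.17 with DMSO-EGF, and in series 2D03 0.23 and 0.27, against -0.27 and -0.13. The late mean difference was 1.30 in 3D (2.46-fold) and 0.78 in 2D (1.71-fold), and without the 48 h array of series 2D04 under U0126 the 2D value was 0.35. The gap between the cultures, 0.53 over both 2D series, was 0.85 against series 2D03 alone and 0.20 against series 2D04 alone, and 0.27 with quantile normalization.

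C1S, the protease that cleaves C4, differed by a smaller amount, in all 3 series. It was 0.51 and 0.64 with U0126 at 24 and 48 h in 3D, against -0.17 and -0.04 with DMSO-EGF. In series 2D04 it was 0.26 and 0.74, against -0.21 and -0.08, and in series 2D03 0.31 and 0.41, against 0.00 and 0.14. In all 6 pairs the U0126 array was the higher one. The late mean difference was 0.68 in 3D (1.60-fold) and 0.47 in 2D (1.38-fold). A value of 0.70 in the 12 h U0126 array of series 2D03 came from 1 of the 2 arrays with a low actin 5′ signal, and the part of RNA quality in it was not tested.

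C3, the component on which all activation routes converge, showed no such course. It read -0.32 and -0.19 with U0126 at 24 and 48 h in 3D, against -0.35 and -0.42 with DMSO-EGF, and its late mean difference was 0.13 in 3D and 0.07 in 2D. Over the 96 arrays C3 spanned -0.66 to 0.14 with an SD of 0.18, close to the median SD of 0.20 over all named probe sets, whereas C4B had an SD of 0.45 and CFB (202357_s_at) one of 0.48.

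SERPING1, the inhibitor of C1R and C1S, was higher with U0126 in late 3D culture. It was 0.55 and 0.69 at 24 and 48 h, against 0.01 and 0.09 with DMSO-EGF, and both U0126 values exceeded the highest of the 24 arrays of the series without U0126, 0.15. In 2D the 24 h values with U0126, -0.31 in series 2D03 and -0.11 in series 2D04, were below those with DMSO-EGF, -0.10 and 0.06. At 48 h they were -0.12 and 0.42, against -0.17 and 0.10. The late mean difference was 0.57 in 3D (1.48-fold) and 0.00 in 2D.

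CD55 (decay-accelerating factor), which dissociates C3 convertases on the cell surface, was higher with U0126 in all 3 series by the late window. Its probe set 201925_s_at read 2.06 and 2.43 with U0126 at 24 and 48 h in 3D, against 1.40 and 1.51 with DMSO-EGF. The values with U0126 were 1.56 and 1.93 in series 2D04, against 1.24 and 1.21, and 1.49 and 1.44 in series 2D03, against 0.87 and 1.21. The DMSO-EGF value of 0.87 was the lowest of this probe set on any array. The EGF and control arrays of series 2D03 at 24 h read 1.18 and 1.19. In each series both late U0126 arrays were above every array of that series without U0126. The other probe set, 201926_s_at, was also higher with U0126 at both late times in every series. Late mean differences were 0.79 and 0.81 for these probe sets in 3D (1.73-fold and 1.75-fold) and 0.47 and 0.59 in 2D. The gap between the cultures for 201925_s_at, 0.32, was 0.15 with quantile normalization.

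CD59 (protectin), which blocks assembly of the membrane attack complex, ran the other way on 3 of its 4 probe sets. For 200985_s_at the U0126 arrays at 8, 12, 24 and 48 h read 0.51, 0.47, 0.67 and 0.74 in 3D, against 0.76, 0.76, 0.97 and 0.87 with DMSO-EGF. The same times gave -0.04, -0.15, -0.02 and 0.40 with U0126 in series 2D04, against 0.15, 0.13, 0.37 and 0.57. In series 2D03 they gave -0.05, -0.30, -0.14 and 0.33 with U0126, against 0.18, 0.11, 0.39 and 0.59. U0126 was the lower of the pair at each of these 12 points. The gap was widest at 24 h in each series, at -0.30 in 3D, -0.39 in series 2D04 and -0.53 in series 2D03.

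For the 3 CD59 probe sets 200983_x_at, 200984_s_at and 200985_s_at the middle-window differences were -0.26, -0.25 and -0.23 in 3D and -0.39, -0.38 and -0.22 in 2D. The 2D means include the 8 h and 12 h arrays of series 2D03 with low actin 5′ signal, in which 200983_x_at read -0.58 and -0.59, against 0.34 and 0.36 with DMSO-EGF. In series 2D04 the differences of that probe set at the same hours were -0.09 and -0.32, and the part of RNA quality in the 2D03 values was not tested. In the late window the 3 probe sets differed by -0.34, -0.16 and -0.22 in 3D and by -0.36, -0.37 and -0.34 in 2D. The fourth, 212463_at, differed by 0.12 in 3D and -0.03 in 2D.

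**Figure D2:**
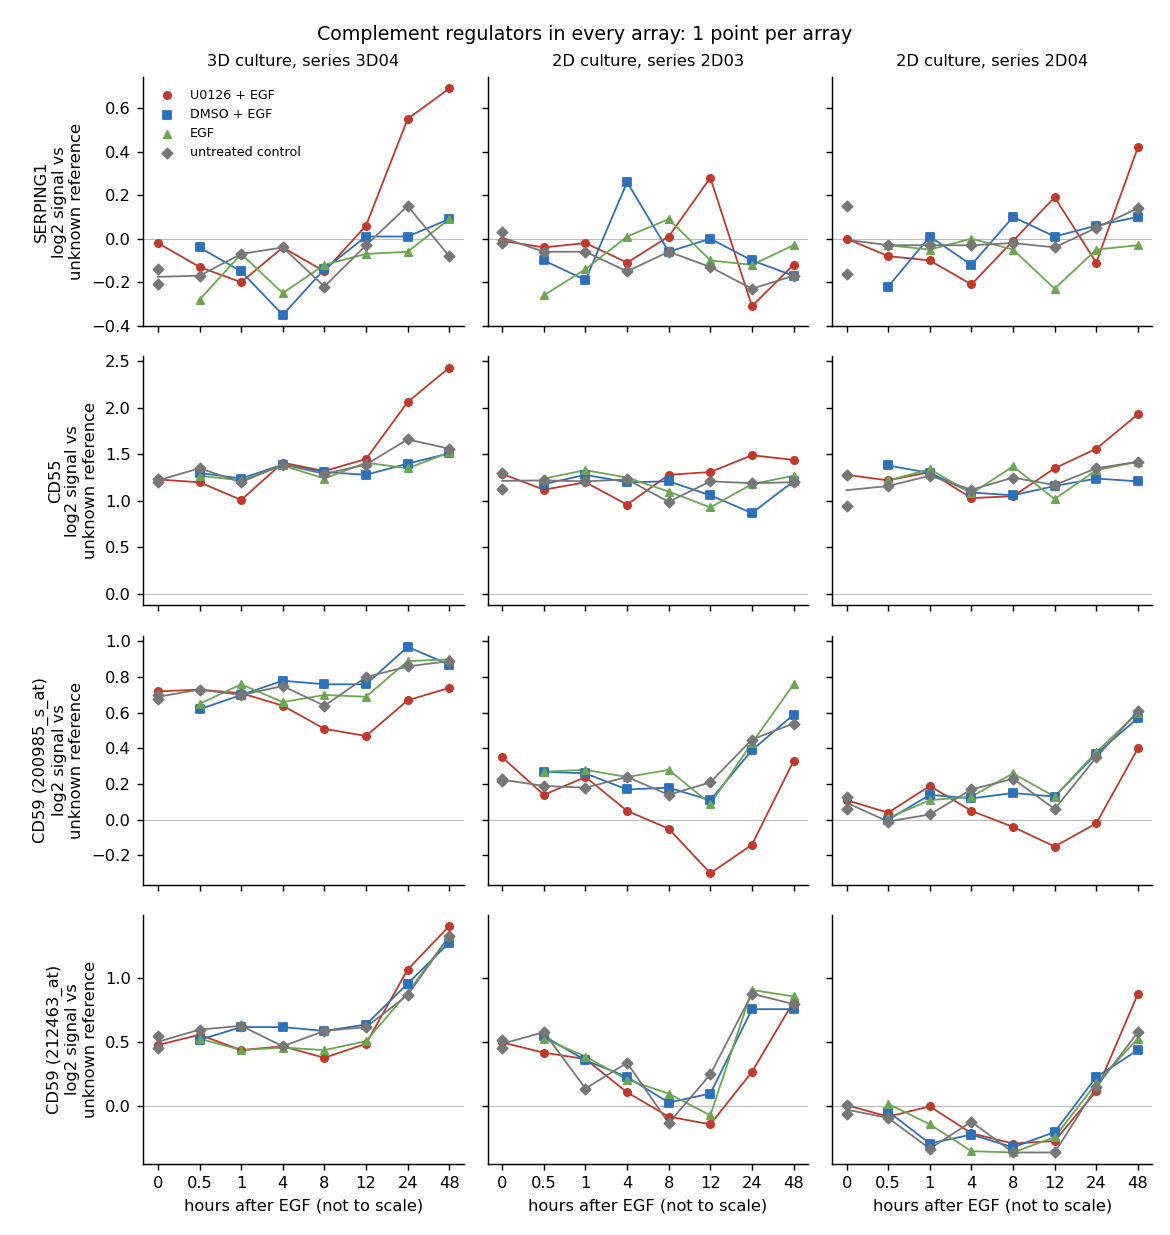
Log2 signal against an unknown reference (vertical axis, own scale per row) of SERPING1, CD55 (201925_s_at) and 2 of the 4 CD59 probe sets at each time after EGF (horizontal axis, not to scale), with 1 point per array and lines through the mean at each time (0 h DMSO arrays not drawn). CD59 by 200985_s_at was lower in the U0126 array than in the DMSO-EGF array from 4 h on in all 3 series, whereas by 212463_at the 48 h values of all 4 arms lay between 1.28 and 1.41 in 3D.

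Counted in single pairs of arrays, members at least 2-fold higher with U0126 were few outside 3D. At 48 h in 3D, 4 of 13 member probe sets, those of C4B, CFB, C1R and CD55 with 1 each, passed this fold, against 3.13% of all 19415 probe sets. At that time 2 passed in series 2D04 (background 1.78%) and 0 in series 2D03 (1.14%). At 24 h 3 passed in 3D (2.53%) and 0 in either 2D series (0.788% in 2D03 and 0.685% in 2D04). No member probe set was 2-fold lower at 24 or 48 h, where 3.12% and 4.12% of all were in 3D, 1.19% and 1.82% in series 2D03, and 1.09% and 2.61% in series 2D04. Over the 13 probe sets the median difference at 48 h was 0.60 in 3D, 0.06 in series 2D03 and 0.32 in series 2D04, against 0.02, 0.01 and 0.00 over all probe sets. As the genes were chosen on this contrast, nothing is read from these shares and medians.

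**Figure D3:**
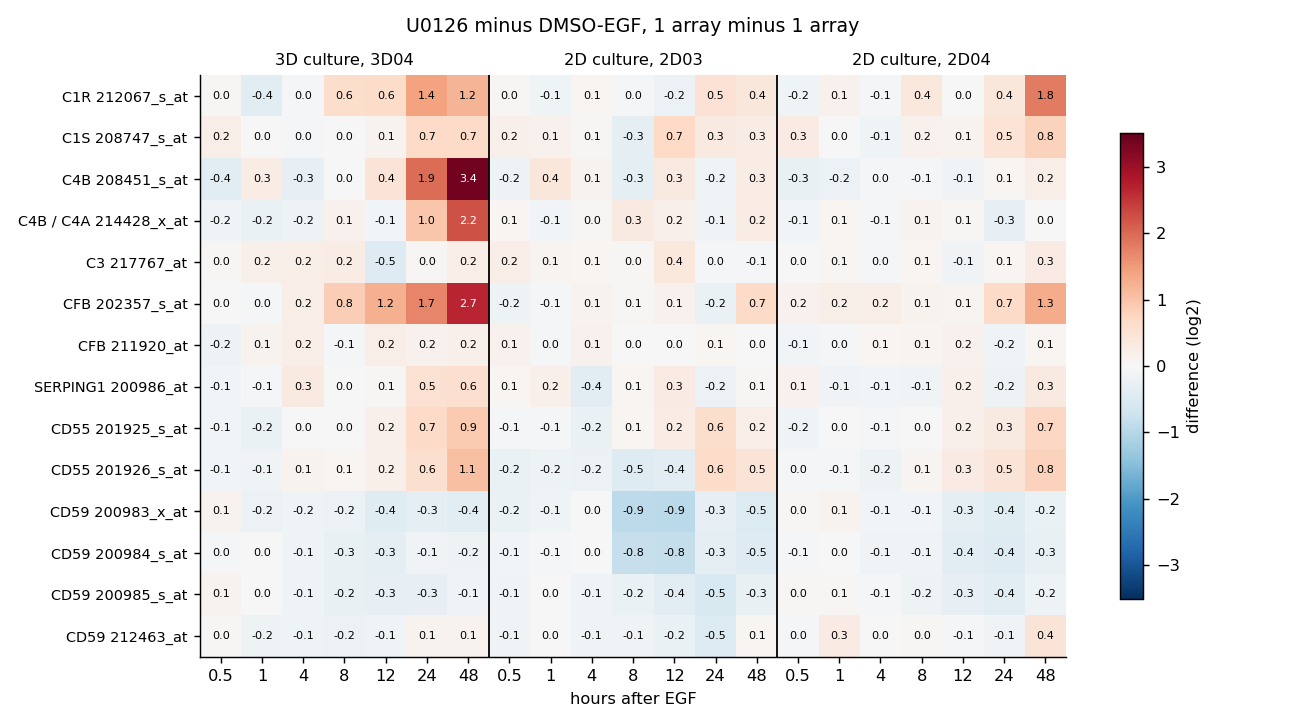
U0126 minus DMSO-EGF (log2, colour and number, 1 array minus 1 array) for the 13 member probe sets and the shared C4 probe set (rows) at each time after EGF (columns) in series 3D04, 2D03 and 2D04. The largest difference is that of C4B at 48 h in 3D, 3.37, followed by CFB at 48 h in 3D, 2.66.

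The correlation of C4B with other members restates in part the contrast on which the genes were chosen, since the arrays include those with U0126. Over the 32 arrays of 3D culture the Pearson correlation of C4B was 0.92 with CFB (202357_s_at), 0.90 with C1R, 0.92 with CD55 (201926_s_at) and 0.85 with SERPING1. The rank correlations for the same pairs were 0.48, 0.54, 0.51 and 0.59. Over the 64 arrays of 2D culture the Pearson values were 0.20, 0.03, 0.45 and -0.11. Over the 72 arrays without U0126 of both cultures they were 0.15, -0.17, 0.35 and 0.09. These are descriptions of arrays that share series and time. Of all other named genes, those most like C4B over the 96 arrays were SLC4A4 (r = 0.86), N4BP2L1 (0.83), TRIM22 (0.83), AMY1A (0.81) and CFI (0.80), with rank correlations between 0.08 and 0.42. For C3 the closest was LILRA1 (r = 0.64, rank correlation 0.63), followed by FCER1G (0.61), GPRIN2 (0.61), FOLR2 (0.59) and PRB1 (0.59).

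Comparisons that the choice of genes did not use were tested with limma, adjusted over all 19415 probe sets with a threshold of 0.05. No member passed between EGF-treated and untreated cells. Over all times after 0 h, EGF minus control lay between -0.10 and 0.04 for the 13 probe sets in 2D (SE 0.04 to 0.12) and between -0.09 and 0.00 in 3D (SE 0.04 to 0.13). In limma 0 of the 13 passed in either culture, as did 0% of all probe sets, and at an unadjusted p under 0.05 there were 0 of the 13 in 2D and 0 in 3D, with 252 and 700 of all probe sets. With the replicate block, 1 probe set of the whole array, no member, passed in 2D.

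No member passed between cells with and without the vehicle. DMSO-EGF minus EGF lay between -0.05 and 0.07 in 2D and between -0.06 and 0.10 in 3D, with 0 of 13 past the limma threshold in each, 0% of all probe sets, and 0 and 1 of the 13 at an unadjusted p under 0.05 (190 and 919 of all probe sets). These comparisons share the DMSO-EGF arrays with the contrast used to choose the genes. After 30 min of U0126 without EGF, at 0 h in 2D (2 arrays per arm), the 13 differences from DMSO lay between -0.22 and 0.27 (SE 0.10 to 0.31). None passed in limma (0% of all probe sets, with 0 of the 13 and 154 of all at an unadjusted p under 0.05).

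Without any treatment, CD59 in both cultures and CD55 in 3D were higher at the end of the time course than at 0 h. In 3D culture CD59 by 212463_at was 0.87 and 1.33 in control arrays at 24 and 48 h, against 0.46 and 0.55 at 0 h, a difference of 0.60 (SE 0.07, adjusted p = 2.9e-05). CD59 by 200983_x_at rose by 0.32 (SE 0.09, adjusted p = 0.016) and by 200984_s_at by 0.28 (SE 0.07, adjusted p = 0.0072). CD55 by 201925_s_at was 1.66 and 1.56, against 1.24 and 1.20, higher by 0.39 (SE 0.09, adjusted p = 0.0036). These 4 of 13 probe sets passed in 3D, all as higher, against 19.5% of all probe sets in either direction, 8.78% as higher and 10.7% as lower. With 1 probe set per gene, the one of largest SD, 1 of 8 passed. With quantile normalization 1 of the 4 above, CD59 by 212463_at, passed. On leaving out single arrays that call stood, whereas 200983_x_at lost its call without any of the 4 arrays, 200984_s_at without the 48 h array or the second 0 h array, and CD55 without the 24 h array. C4B stood at 0.36 (SE 0.25, adjusted p = 0.38) and CFB (202357_s_at) at 0.35 (SE 0.19, adjusted p = 0.24) in this comparison.

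In 2D the same comparison called 2 of 13, both CD59 and both higher, against 3.95% of all probe sets in either direction, 2.09% as higher and 1.86% as lower. With 1 probe set per gene, the one of largest SD, 0 of 8 passed. By 200985_s_at the controls averaged 0.49 ± 0.11 late and 0.16 ± 0.08 at 0 h (SD, n = 4 arrays each), a difference of 0.33 (SE 0.07, limma adjusted p = 0.0030). By 200984_s_at they averaged 0.68 ± 0.13 late and 0.22 ± 0.12 at 0 h (SD, n = 4 arrays each), a difference of 0.46 (SE 0.13, limma adjusted p = 0.035). The call on 200984_s_at was lost on leaving out any of 7 of the 8 arrays, and 0 of 13 passed in series 2D03 alone against 5 in series 2D04 alone. With the replicate block 5 passed, the further ones being CD59 by 200983_x_at (0.44, adjusted p = 0.0065) and 212463_at (0.37, adjusted p = 0.0050) and CD55 by 201926_s_at (0.38, adjusted p = 0.025). The block raised the count over all probe sets to 2446 as well, against 766 without it.

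CD59 on all 4 probe sets, C1R, CFB and CD55 on 1 each were higher in untreated 3D than in untreated 2D cells. Over all control arrays CD59 by 200985_s_at averaged 0.75 ± 0.08 in 3D (SD, n = 9) and 0.22 ± 0.17 in 2D (SD, n = 18), higher by 0.53 (SE 0.04, limma adjusted p = 2.3e-09), without overlap between the cultures. The other CD59 probe sets were higher by 0.60 (200983_x_at), 0.55 (200984_s_at) and 0.50 (212463_at), with 200984_s_at and 212463_at overlapping. C1R averaged 0.27 ± 0.16 in 3D (SD, n = 9) and -0.03 ± 0.14 in 2D (SD, n = 18), higher by 0.30 (SE 0.06, limma adjusted p = 0.00025), with some overlap.

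CFB by 202357_s_at averaged -0.19 ± 0.23 in 3D (n = 9) and -0.40 ± 0.15 in 2D (n = 18), higher by 0.21 (SE 0.06, limma adjusted p = 0.0084), and CD55 by 201925_s_at was higher by 0.16 (SE 0.05, limma adjusted p = 0.019). In all 7 of 13 probe sets passed, each as higher, where 38.6% of all probe sets passed in either direction and 19.3% as higher. Of the 7, 4 were probe sets of CD59. With 1 probe set per gene, the one of largest SD, 3 of 8 passed. As 3D culture is 1 series, the 2D series were also used alone. The CFB call was lost against series 2D03 alone (0.16, limma adjusted p = 0.058). The CD55 call was lost against series 2D04 alone (0.15, adjusted p = 0.057), with quantile normalization (0.08, adjusted p = 0.24) and without the 24 h control array of 3D.

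C4B, whose late U0126 values differed most between the cultures, averaged -0.25 ± 0.23 in untreated 3D (SD, n = 9) and -0.11 ± 0.21 in untreated 2D cells (SD, n = 18), a difference of -0.14 (SE 0.08, limma adjusted p = 0.16). Against series 2D03 alone it was lower in 3D by -0.28 (limma adjusted p = 0.0042). C3, C1S, SERPING1 and the second probe sets of CFB and CD55 did not pass either, with differences between -0.13 and -0.01. Against the 2D series taken alone, C3 and CFB (211920_at) passed as lower in 3D against series 2D03 (-0.19 and -0.18, adjusted p = 0.0083 and 0.018). CD55 by 201926_s_at passed in opposite directions, as lower in 3D against series 2D03 alone (-0.22, limma adjusted p = 0.0012) and as higher against series 2D04 alone (0.19, limma adjusted p = 0.033).

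**Figure D4:**
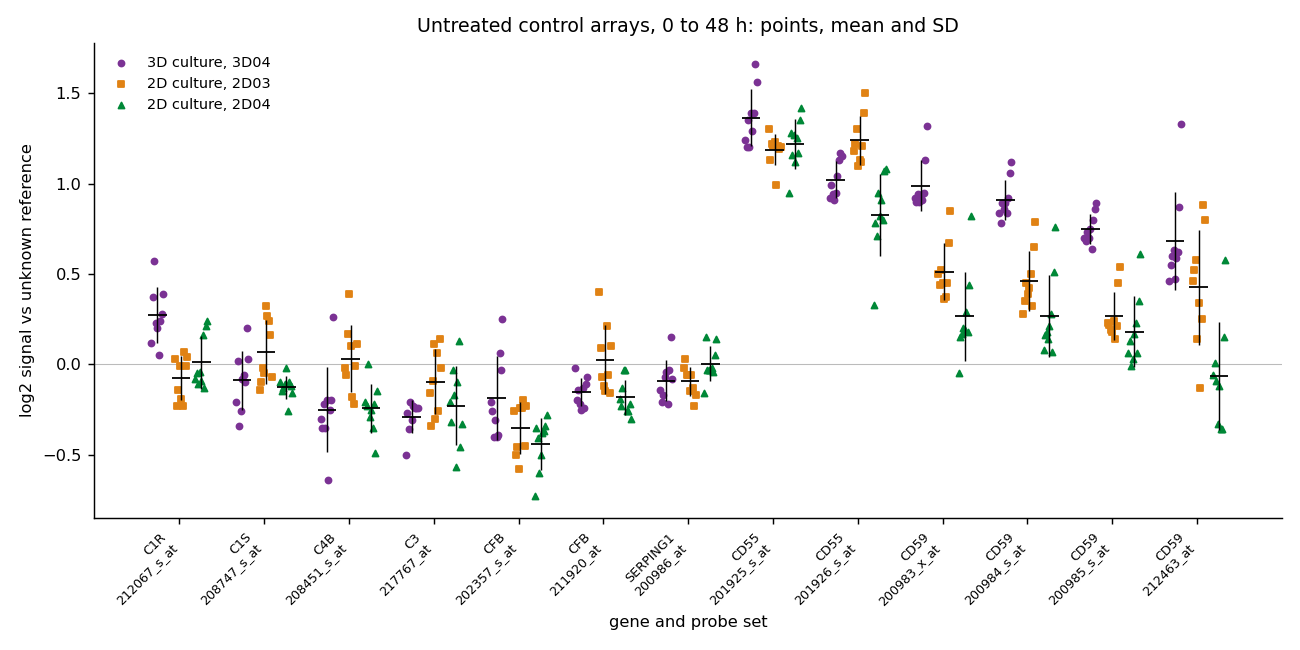
Log2 signal against an unknown reference (vertical axis) of the 13 member probe sets (horizontal axis) in untreated control arrays of all times, 9 per series, with the mean (bar) and SD (line). The CD59 probe sets lie higher in series 3D04 than in both 2D series, while the mean of C4B is -0.25 in 3D and -0.11 over both 2D series.

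The other genes of the pathway were taken as a list of 50, made with earlier results of these data known. Of these, 41 were measured by 55 probe sets. In the late U0126 comparison in 3D, 14 of the 55 probe sets, from 11 genes, passed as higher and 2 as lower, against 36.9% of all probe sets in either direction, 19.7% as higher and 17.2% as lower. Clusterin (CLU), an inhibitor of terminal complex assembly, was higher by 2.25, 2.09 and 2.03 on its 3 probe sets (limma adjusted p at most 4.7e-08), C1RL, a C1R-like protease, by 2.19 (SE 0.18), complement factor I (CFI), the protease that inactivates C3b and C4b, by 1.51 (SE 0.11), and CFHR4, a factor H-related protein, by 1.29 (SE 0.14). Both lower probe sets were those of C1QBP, a binding protein of the C1q globular heads (-0.29 and -0.19, adjusted p = 0.0095 and 0.038), a gene named after its values were seen. The median of the 55 was 0.04, against 0.03 over all probe sets.

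In late 2D culture 5 of the 55 passed as higher and 0 as lower, against 11.1% of all in either direction, 5.76% as higher and 5.35% as lower. These were the 3 CLU probe sets (1.94, 1.85 and 1.70), C1RL (1.64, SE 0.23) and C4BPB, a chain of the C4b-binding protein (0.98, SE 0.30, adjusted p = 0.026). The C4BPB call was lost with array weights (adjusted p = 0.081) and on leaving out any of 4 of 8 arrays. The replicate block raised the number of all probe sets that passed to 4301, against 2157 without it.

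In the middle window 7 of 55 were higher and 1 lower in 3D (background 6.44% and 7.53%), with CLU higher by 0.71 to 0.83, and 2 were higher and 3 lower in 2D (1.87% and 5.03%, or 6.91% in either direction), the higher ones being CLU. THBD, thrombomodulin, was the lower one in 3D (-0.78, SE 0.19, limma adjusted p = 0.0077) and was lower in 2D too (-0.94, SE 0.23, limma adjusted p = 0.0084, or 0.069 with array weights). The other lower probe sets in 2D were 2 of CD46, the membrane cofactor of C3b cleavage (-0.48 each), which lost their calls on leaving out either low-actin array and whose difference in series 2D04 alone was -0.10 and -0.02 (adjusted p = 0.66 and 0.96). The replicate block raised the number of all probe sets that passed in this 2D window to 3437, against 1341 without it, and leaving out the low-actin arrays gave 502. The smaller CLU difference in 2D, 0.43, lost its call on leaving out any of 7 arrays.

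The difference of the late U0126 effects between the cultures was also tested for these other genes. It is the contrast on which C4B was chosen, and their list was made with earlier results of these data known. The p-values are therefore not independent of the choice of genes. The difference passed for 4 of the 55, all higher in 3D, where 9.63% of all probe sets passed, 4.13% as higher and 5.5% as lower. CFI led, with 1.29 and 1.57 under U0126 at 24 and 48 h in 3D, against -0.13 and -0.03 with DMSO-EGF. In 2D the U0126 values of CFI were 0.03 and 0.32 in series 2D03, against 0.02 and -0.01, and -0.15 and 0.02 in series 2D04, against -0.04 and -0.05. The U0126 effect on CFI was thus larger in 3D by 1.44 (SE 0.12, adjusted p = 4.1e-12), and the 3D U0126 arrays did not overlap the others named here. For THBD (203887_s_at, 0.98, adjusted p = 0.024), CFHR2 (0.70, adjusted p = 0.0043) and CFHR4 (0.80, adjusted p = 0.027) the call was lost with quantile normalization, with array weights, against series 2D04 alone and on leaving out the 48 h DMSO-EGF or the 48 h U0126 array of 3D, among others. The CFI call stood under each of these. The second THBD probe set, 203888_at, did not pass.

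**Figure D5:**
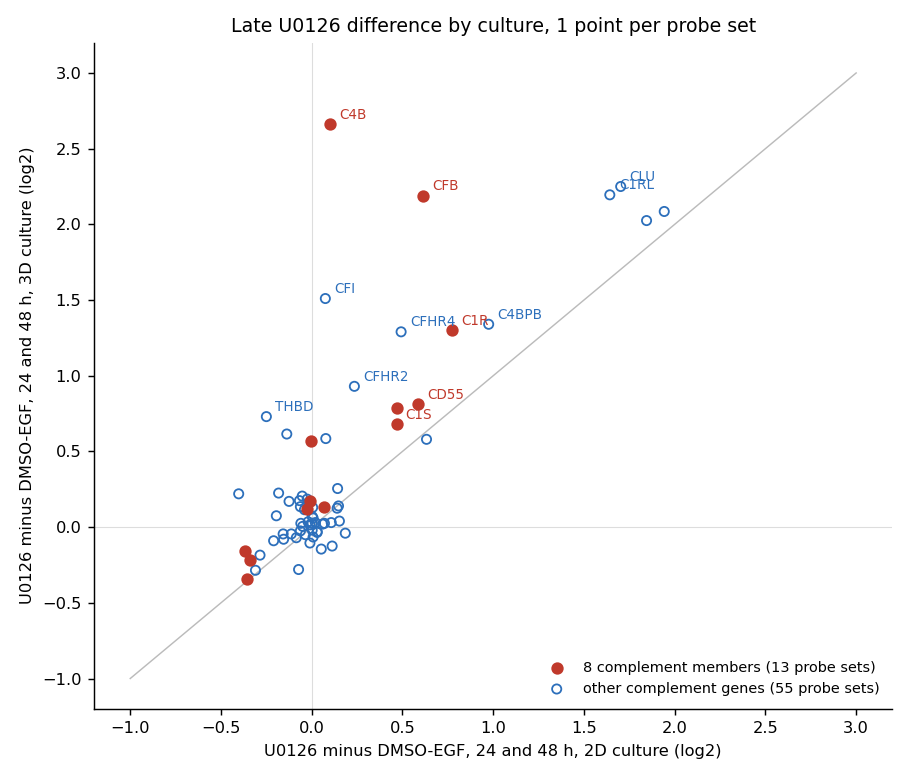
Mean U0126 minus DMSO-EGF at 24 and 48 h (log2) in 3D culture (vertical axis) against 2D culture (horizontal axis) for the 13 member probe sets (filled) and 55 probe sets of other complement genes (open), with the line of equal differences. C4B (2.66 in 3D, 0.10 in 2D), CFB (2.19 and 0.61) and CFI lie far above the line, whereas CLU and C1RL lie nearer to it.

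C4B and CFB lie in the class III region of the major histocompatibility complex, and C1R and C1S lie side by side on chromosome 12. The class III neighbours were 15 genes with 25 probe sets. In late 3D culture with U0126, 9 probe sets from 4 genes passed as higher and 2 from 1 gene as lower. The shares over all probe sets were 19.7% and 17.2%. The median of the 25 was 0.16, against 0.03 over all probe sets. In late 2D culture 1 passed as higher and 0 as lower (background 5.76% and 5.35%). Of 8 probe sets of 6 neighbours of C1R and C1S, C1RL among them, 4 were higher and 1 lower in late 3D culture and 1 was higher in late 2D culture. The late difference of C4B in 3D was 2.66, and the highest among the class III neighbours was 0.94. As C4B was chosen on this contrast, nothing is read from that order.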

How the data were processed

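Per the submitters' processing notes the arrays were summarised with RMA. The deposited log values, taken here as log2, lay between -5 and 5.7 with array medians from -0.06 to 0.03; the log base, the reference of each probe set and any further centring are not given in the sources used here. Of 22930 probe sets, 19415 with 1 symbol (11940 genes) were tested; 524 controls, 125 with several symbols and the unnamed ones were left out. Groups came from the submitters' labels, with "05h" read as 0.5 h.

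Linear models were fitted with limma 3.58.1 (R 4.3.3, lmFit and eBayes with trend) on the deposited values as they stand, apart for 2D (33 residual degrees of freedom), 3D (13), untreated arrays (18) and all arrays (50), with p-values adjusted by Benjamini-Hochberg over all 19415 probe sets. Tables and figures were made with Python 3.11.15. The 2D fit of EGF minus control was tested on simulated data with noise drawn apart for each array. The other fits were not tested in this way. All members were named, and from other complement genes those with the smallest adjusted p; C1QBP was chosen after its values were seen. The members and gene lists were chosen with earlier results of these data known. Same-numbered 2D arrays deviated together (435 pairs of groups, correlations from 0.201 to 0.795), through the series label. A replicate block, coded by series, was therefore fitted as an alternative only. The main 2D fits had no block, and their errors and p-values leave this pairing out. Alternatives were quantile normalization, median centring, array weights, 1 probe set per gene, the block, each 2D series alone, leaving out the 2 low-actin arrays, and leaving out each array. The number of arrays limits the precision.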

Additional observations from a re-analysis of the deposited data

Results flagged for a closer look

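Groups of arrays were checked within 1 culture and arm, pooled over several times and, in 2D, over both series. Of 130 such groups, 6 held 1 array far from the others by Dixon's critical values. These values are set so that chance flags about 1 in 20 groups of like arrays. Here differences between times and series enter the flags too, so that rate need not hold. C4B read 0.26 in the 48 h control array of 3D culture, against -0.64 to -0.20 in the other control arrays. CD59 by 212463_at read 1.33 in that same array. C1S read 0.70 in the 12 h U0126 array of series 2D03, 1 of the 2 arrays with a low actin 5′ signal. In series 2D04 C1R read 1.98 in the 48 h U0126 array, and 0.15 in the 8 h DMSO-EGF array. CD55 by 201925_s_at read 0.87 in the 24 h DMSO-EGF array of series 2D03, the lowest of its 96 values.

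The late U0126 effect passed as larger in 3D than in 2D culture, by limma's test of the difference, for CFI (1.44), THBD (0.98), CFHR4 (0.80) and CFHR2 (0.69). These were 4 of the 55 probe sets of other complement genes, against 4.13% of all probe sets as higher and 9.63% in either direction. The calls of THBD, CFHR4 and CFHR2 were lost with quantile normalization, with array weights and against series 2D04 alone.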

How the results depend on the processing

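The number of all probe sets that passed moved by more than 1.5 times under these alternatives. With the replicate block it was 1 for EGF minus control in 2D (0 without), 2446 for late against 0 h controls in 2D (766 without), 3437 in the middle (1341 without) and 4301 in the late U0126 comparison in 2D (2157 without). Series 2D03 alone gave 499 for late controls and 3703 for the middle window, and series 2D04 alone 4038 for late controls and 5019 for the late window. With 1 probe set per gene, 11940 in all, there were 497, 866 and 4711 for late controls in 2D, the middle window in 2D and the late window in 3D, and the shares, 4.16%, 7.25% and 39.5%, stayed near those over 19415, 3.95%, 6.91% and 36.9%. Array weights gave 786 (middle, 2D), 4496 (late, 3D) and 1186 (difference of cultures), and quantile normalization 1207 for the last. Leaving out the low-actin arrays gave 502 in the middle window in 2D. Leaving out each array in turn gave 374 to 718 (late controls, 2D), 1231 to 2884 (late controls, 3D), 725 to 2475 (middle, 2D), 1492 to 3115 (middle, 3D) and 811 to 2401 (difference of cultures).
Quantile normalization lowered the late U0126 differences in 3D to 2.21 (C4B, 2.66 without it), 1.76 (CFB, 2.19), 0.97 (C1R, 1.30), 0.58 and 0.55 (CD55, 0.79 and 0.81), 0.51 (C1S, 0.68) and 0.38 (SERPING1, 0.57), and the gaps between the cultures to 2.11 (C4B), 1.18 (CFB), 0.39 (SERPING1), 0.27 (C1R) and 0.15 (CD55, 201925_s_at). Some differences that had not passed turned in direction. For late against 0 h controls in 2D they were 0.10 (SERPING1), -0.015 (C1S) and -0.13 (C3) in series 2D04 alone, -0.02 (CD55, 201925_s_at) and 0.09 (C4B) in series 2D03 alone, and for C4B 0.0075 with median centring and 0.0265 with array weights. For untreated 3D minus 2D they were 0.0044 (SERPING1) against series 2D03, 0.0389 (C1S), 0.03 (CFB, 211920_at) and 0.1944 (CD55, 201926_s_at) against series 2D04, where only the CD55 value passed (limma adjusted p = 0.033, and 0.0012 for -0.2167 against series 2D03), and for that CD55 probe set 0.0156 with median centring and 0.0482 with array weights. Leaving out each array spread late minus 0 h controls in 2D over -0.13 to 0.025 (SERPING1), -0.125 to 0.115 (C4B) and -0.06 to 0.24 (C3), those in 3D over -0.07 to 0.11 (CFB, 211920_at) and -0.035 to 0.215 (C1R), and the untreated difference of CD55 (201926_s_at) over -0.0505 to 0.0157. The cause was not tested. With 3D culture in 1 series and 1 array per arm and time, the number of arrays limits the precision.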
